A study of Mus musculus with 34 samples.

Results

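Genes of the Notch pathway were followed in mouse liver: the receptors Notch1, Notch2, Notch3 and Notch4, the ligands Jag1 and Dll4, and the transcription factors Hes1, Hey1 and Heyl. They were chosen by name, with earlier results of these data known, as 9 of the 13099 genes tested. The array carried 19 probe sets that name 1 of these genes and no other gene, and for each gene the probe set with the highest mean signal over the 34 arrays stood for it. All 9 genes lay among the 60% of probe sets with the highest mean signal and so entered the test.

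Each of 34 RNA samples was hybridised to an Affymetrix Mouse Genome 430 2.0 array. At week 20 there were 5 livers of mice with a Pdgf-c transgene (PDGF-C, a platelet-derived growth factor) fed 0.06% peretinoin, an acyclic retinoid, 5 transgenic livers from the basal diet and 5 livers of wild-type C57/B6 mice. At week 48 there were 5 tumours of transgenic mice, 5 livers of transgenic mice fed 0.06% peretinoin, 5 transgenic livers from the basal diet and 4 wild-type livers. The diets began at weaning in week 4. The labels give the strain of the transgenic mice as Pdgf-c Tg. They do not name the promoter of the transgene, the sex of the mice, whether tumours and livers share mice, or whether replicates were separate animals, so p-values measure the spread between these samples.

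Notch receptors are cell surface proteins that are cut when a ligand on a neighbouring cell binds them. The released inner part moves to the nucleus, joins the DNA-binding protein Rbpj and turns on target genes, among them the repressors Hes1, Hey1 and Heyl. In liver the pathway is known for its role in bile duct formation, where Jag1 and Notch2 act, and in blood vessels, where Notch1, Notch4 and Dll4 act in endothelium and Notch3 in the mural cells around vessels.

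Signals are linear MAS5 intensities, and changes are differences of log2(signal + 16) with their standard error (SE) from limma. Called means an adjusted p (Benjamini-Hochberg, over the 13099 genes of a comparison) below 0.05. The 7 hepatocyte markers measured, among them Alb (albumin), had mean log2 signals between 13.19 and 14.16 on every array, in the 5 tumours between 13.24 and 13.77. Transcripts of another tissue were found on 6 arrays: skeletal muscle on replicate 4 of the week 48 wild-type livers, replicate 4 of the week 48 transgenic livers, replicates 3 and 5 of the week 20 peretinoin livers and replicate 1 of the week 48 peretinoin livers, and pancreatic acinar transcripts on replicate 5 of the week 20 transgenic livers and replicate 4 of the week 48 transgenic livers. For these, the mean of the tissue's markers lay at least 3 log2 units above the median of the arrays. Replicate 1 of the week 48 transgenic livers lay 2.02 units above it for muscle. It was not counted and stayed in the fits without the 6 arrays. Array medians ran from 71.3 to 95.5. The 3'/5' ratio of Actb, a measure of RNA quality, lay at 1.62 to 1.74 in week 20 transgenic livers and 1.81 to 2.16 in week 20 wild-type livers. For Pdgfc, the transgenic minus wild-type difference at week 20 was -0.10 and 0.23 on its 2 probe sets, and 0.65 and 0.49 at week 48. The sources used here do not say if those probe sets detect the transgene, and they therefore do not check the genotype labels.

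**Figure D1:**
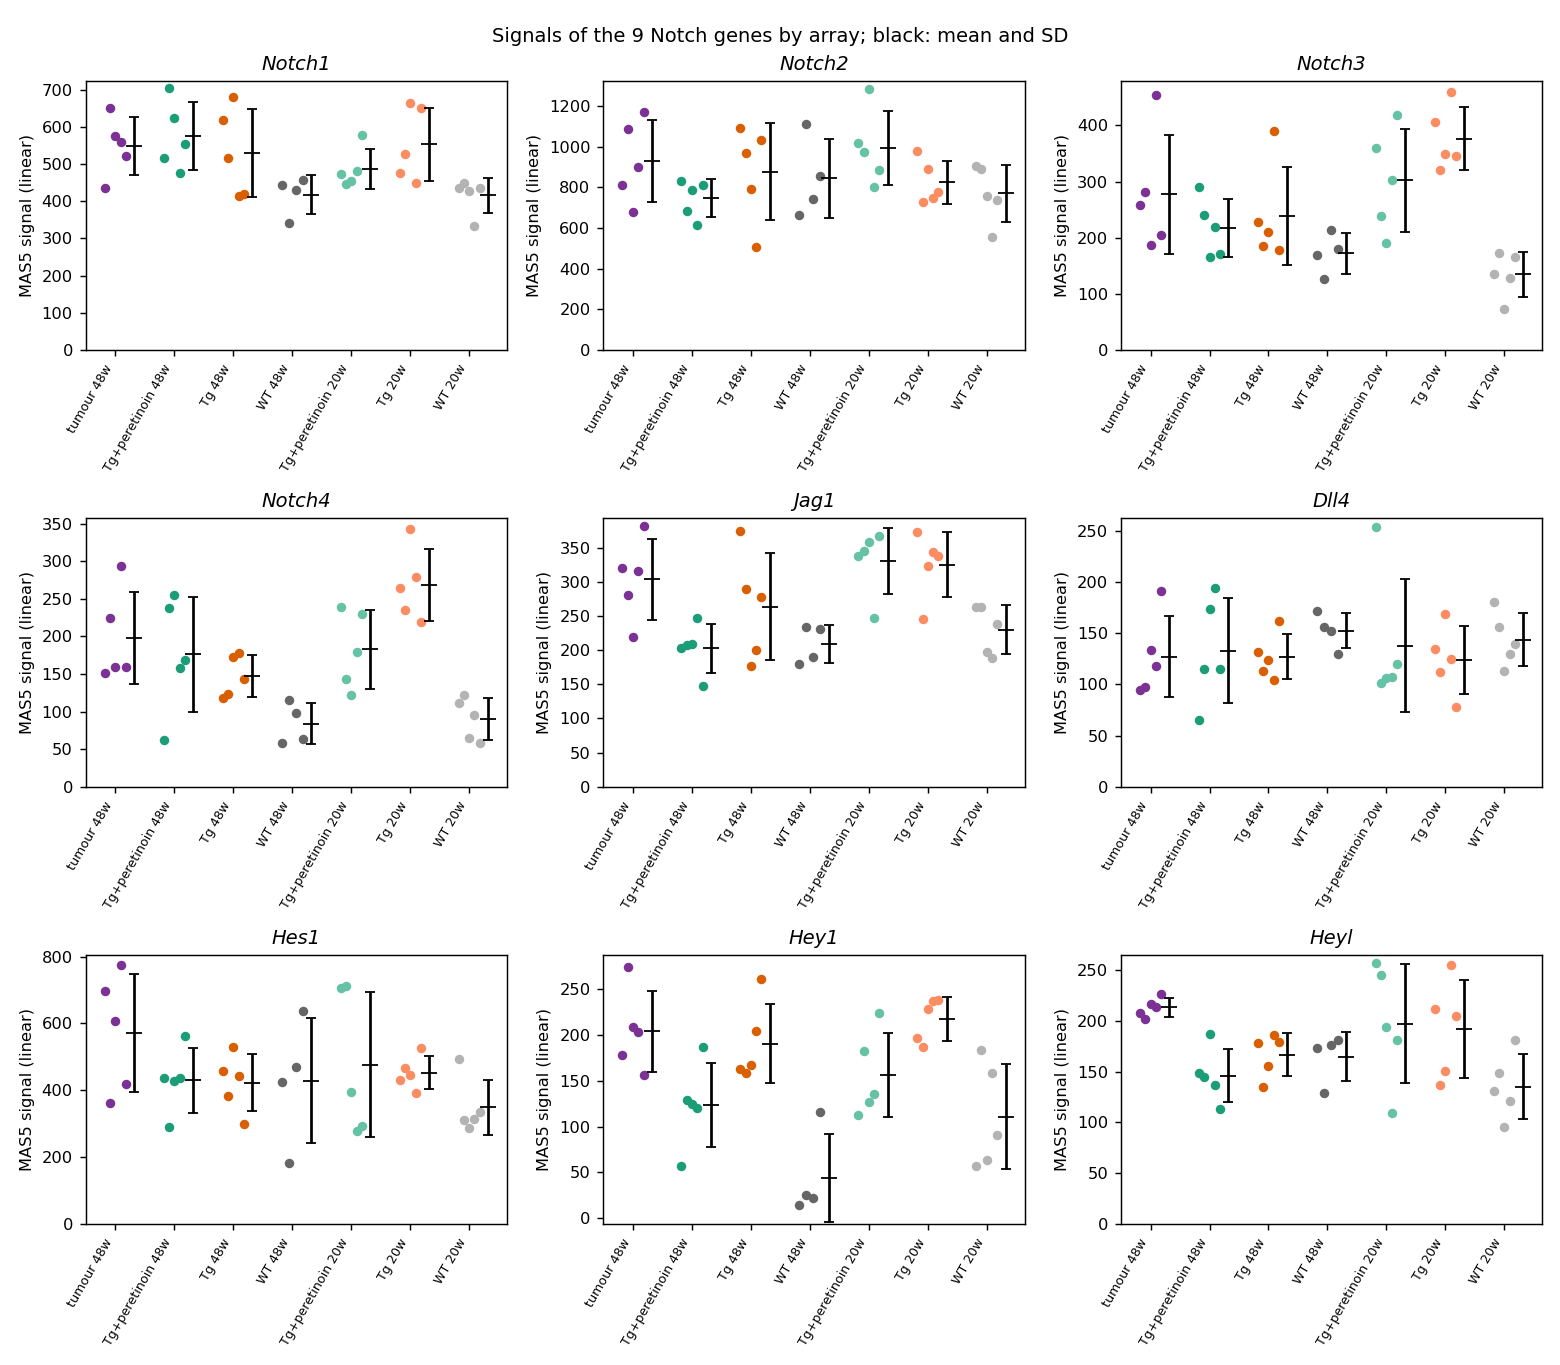
Linear MAS5 signal of the 9 Notch genes in each of the 34 arrays, with the 7 groups on the horizontal axis (Tg, transgenic, and WT, wild type; weeks 48 and 20); points are arrays, and black marks are the mean and SD of each group. Notch3 and Notch4 stand highest in week 20 transgenic livers, with means of 376 and 268, and Hey1 is lowest in week 48 wild-type livers, with a mean of 44.1.

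At week 20, transgenic livers had 5 of the 9 genes called higher and 0 called lower relative to wild-type livers. Over all 13099 genes, 23.7% were called in either direction, 15.8% higher and 7.87% lower. The receptors Notch3 and Notch4 rose by 2.67-fold and 2.73-fold, the target Hey1 by 1.99-fold, and the receptor Notch1 and the ligand Jag1 by 1.31-fold and 1.39-fold. The median log2 change of the 9 genes was 0.45, against 0.06 over all genes. Groups did not overlap for 4 of the 9 genes (Notch1, Notch3, Notch4 and Hey1), compared with 16.1% of all genes.

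Notch3, a receptor best known from smooth muscle cells and pericytes, had signals of 406.9, 321.3, 348.8, 459.7 and 345.5 in week 20 transgenic livers, against 134.5, 172.3, 72.8, 127.5 and 165.8 in week 20 wild-type livers. Every transgenic array lay above every wild-type array. The log2 change was 1.42 ± 0.23 (SE, n = 5 and 5, limma adjusted p = 2.9e-05). Notch4, a receptor of vascular endothelium, had signals of 264.9, 234.6, 343.3, 279.4 and 219.3 in transgenic livers, against 111.4, 122.0, 64.5, 95 and 57.6 in wild-type livers. The lowest transgenic array was again above the highest wild-type array, and the log2 change was 1.45 ± 0.26 (n = 5 and 5, limma adjusted p = 9.34e-05). In bulk liver, more cells of a type and more RNA per cell cannot be told apart.

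The promoters of Notch3 and Notch4 are shown because these receptors changed most at week 20. In RefSeq's GRCm38.p6 annotation the protein-coding gene Notch3 lies at chr17:32120820-32166896 and Notch4 at chr17:34564286-34588543, and the array files themselves give no positions. Each sequence runs from 250 bases before to 50 bases after the start used in the RefSeq promoter table, 5′ to 3′ on the strand of the gene. That start lies 6 bases inside the annotated gene for Notch3 and 9 bases inside it for Notch4, and positions below are counted from it. That of Notch3 is at chr17:32166841-32167140 on the minus strand and that of Notch4 at chr17:34564045-34564344 on the plus strand. Capitals mark matches to an N box (CACNAG, a motif bound by Hes proteins) in Notch3 and to an AP-1 site (TGACTCA, bound by Fos and Jun proteins) in Notch4.
Notch3: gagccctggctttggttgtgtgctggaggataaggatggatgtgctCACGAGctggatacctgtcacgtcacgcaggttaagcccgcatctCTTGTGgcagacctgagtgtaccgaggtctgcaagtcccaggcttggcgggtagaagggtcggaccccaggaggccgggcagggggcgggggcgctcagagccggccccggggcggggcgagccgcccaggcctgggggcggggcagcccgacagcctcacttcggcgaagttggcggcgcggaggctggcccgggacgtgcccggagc
Notch4: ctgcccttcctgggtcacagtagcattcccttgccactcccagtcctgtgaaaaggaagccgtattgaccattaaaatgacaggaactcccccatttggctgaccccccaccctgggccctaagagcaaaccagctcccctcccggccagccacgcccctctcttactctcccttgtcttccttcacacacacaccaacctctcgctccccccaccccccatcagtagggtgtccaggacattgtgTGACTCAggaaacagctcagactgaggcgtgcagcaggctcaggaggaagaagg
The Notch3 sequence held 2 N boxes, at -204 to -199 on the plus strand of the gene and at -159 to -154 on the minus strand, and 70% of its bases were G or C. The Notch4 sequence held 1 AP-1 site on the plus strand, from 4 bases before that start to base 3, which is inside the annotated gene, and 58.3% of its bases were G or C. The median over all 32851 promoters of the table was 52.7%. An N box was found in 42.5% of those promoters, an AP-1 site in 5.2%, and the core of the Rbpj motif (TGGGAA) in 25.6%, each searched on both strands, and no 2 of these motifs overlapped in Notch3 or Notch4. The AP-1 motif was added to the search after the sequences had been seen. The Rbpj core was in 0 of the 6 Notch gene promoters in the table (Notch1, Notch2, Notch3, Notch4, Jag1 and Dll4). Hes1, Hey1 and Heyl were not matched.

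Cell type markers also differed at week 20, in some lists higher and in others lower. Over all genes 15.8% were called higher and 7.87% lower. The mean log2 signal of 12 stellate and mural cell markers was 9.20 to 9.52 in transgenic livers, against 7.24 to 8.30 in wild-type livers, and of the 11 that were tested (all but Cnn1) 5 were called higher, among them Pdgfrb (log2 3.39) and Reln (1.37). For 12 endothelial markers the mean was 9.09 to 9.19 in transgenic livers, against 8.07 to 8.69 in wild-type livers, and 3 of the 12 were called higher (Eng, Emcn and Cd34). Of 4 T cell markers 3 rose, and of 4 bile duct markers 0 were called. Macrophage and Kupffer cell markers had a mean of 8.09 to 9.05 in transgenic livers, against 9.69 to 10.25 in wild-type livers, and 3 of the 8 fell, as did 2 of 7 hepatocyte markers. The part of these cell types, and of the Actb ratio, in the changes of the Notch genes was not tested.

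Notch1, the receptor of broadest expression in the family, had signals of 476.1, 526.7, 663.6, 448.3 and 649.1 in week 20 transgenic livers, against 435.5, 447.6, 427.9, 333.7 and 434.3 in wild-type livers. The groups were separated by a gap of less than 1 signal unit, and the log2 change was 0.39 ± 0.14 (n = 5 and 5, limma adjusted p = 0.0428). Jag1, a membrane-bound ligand, had signals of 373.6, 245.9, 323.5, 344.2 and 338.0 in transgenic livers, against 263.4, 263.2, 196.8, 189.0 and 238.0 in wild-type livers. Transgenic replicate 2 lay within the wild-type range, and the log2 change was 0.47 ± 0.17 (n = 5 and 5, limma adjusted p = 0.0394). The calls of Notch1 and Jag1 ended when the 6 arrays with another tissue's transcripts were left out (log2 0.33, limma adjusted p = 0.113, and 0.45, adjusted p = 0.0822), and each held in 3 of the 10 fits that left out an array. Median centring, under which the median of all genes was -0.07 in place of 0.06, also ended them, with log2 changes of 0.26 and 0.34.

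Hey1, a transcriptional repressor of vascular cells and a direct Notch target (chr3:8663359-8667038 in GRCm38.p6), had signals of 196.2, 187.4, 228.4, 236.8 and 237.7 in week 20 transgenic livers, against 56.7, 183.8, 63.8, 158.5 and 90.3 in wild-type livers. The transgenic arrays lay close together and above all wild-type arrays, which were more widely spread. The log2 change was 0.995 ± 0.31 (n = 5 and 5, limma adjusted p = 0.0168). The call was lost without wild-type replicate 1 or replicate 3 (highest adjusted p = 0.0584) and after quantile normalization (log2 0.82, adjusted p = 0.0567).

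The other 4 genes were not called at week 20. Heyl, a repressor related to Hey1 that is a Notch3 target in mural cells, averaged 192 ± 48.1 in transgenic livers and 135 ± 31.9 in wild-type livers (SD, n = 5 each, log2 0.45 ± 0.18, limma adjusted p = 0.0664). Hes1, the most widely used Notch target, averaged 452 ± 49.8 in transgenic livers and 348 ± 82.9 in wild-type livers (log2 0.38 ± 0.27, limma adjusted p = 0.318). Notch2, the receptor of bile duct formation, averaged 824 ± 106 in transgenic livers and 771 ± 141 in wild-type livers (log2 0.11 ± 0.18, limma adjusted p = 0.717). Dll4, an endothelial ligand of sprouting vessels, averaged 124 ± 33.0 in transgenic livers and 144 ± 25.9 in wild-type livers and was the member with a negative estimate (log2 -0.21 ± 0.23, limma adjusted p = 0.551). The 95% intervals of Hes1 (-0.16 to 0.92) and Dll4 (-0.69 to 0.26) leave room for changes in either direction.

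**Figure D2:**
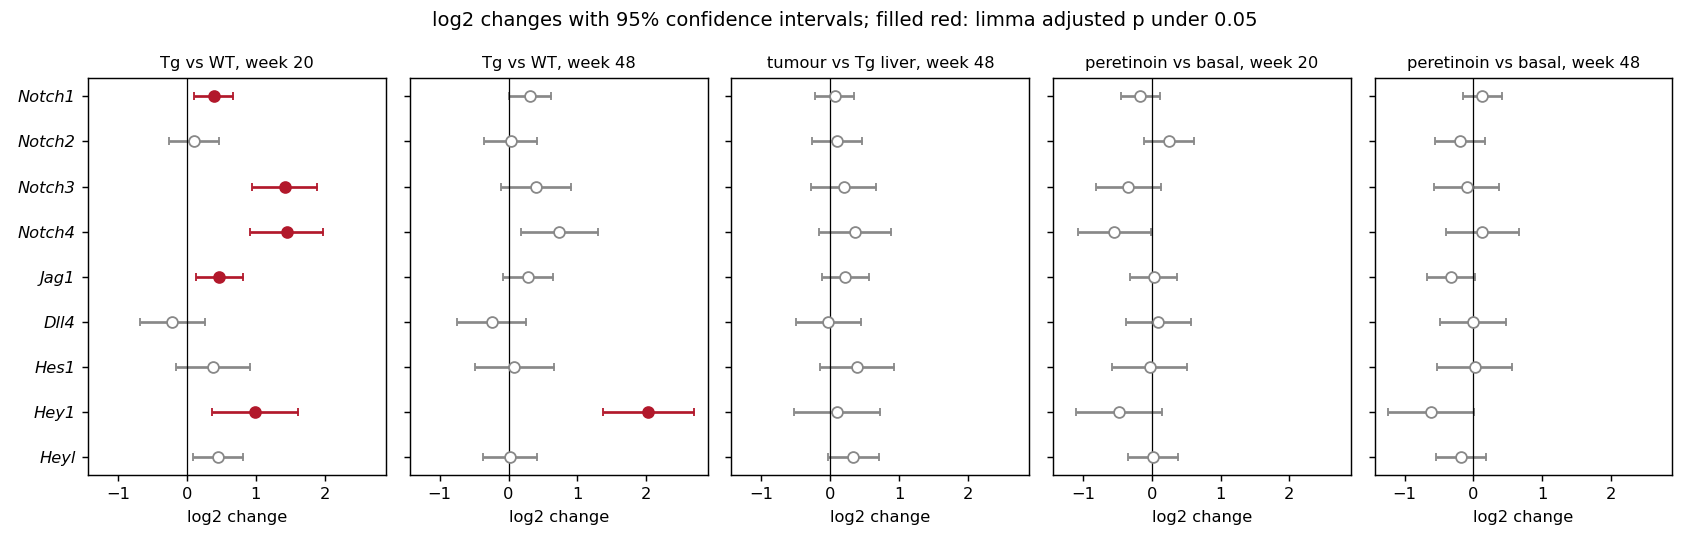
Log2 change of each of the 9 Notch genes (rows) in 5 comparisons (panels), with 95% confidence intervals; filled red points passed limma adjusted p under 0.05 and open grey points did not. Transgenic livers at week 20 have 5 filled points, at week 48 Hey1 alone is filled at 2.03, and the tumour and peretinoin panels have 0.

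At week 48, Hey1 was the member called higher in transgenic liver, by 4.09-fold, and the other 8 genes were not called. Over all genes 20.8% were called at this age, 14.2% higher and 6.58% lower. Hey1 had signals of 162.4, 158.1, 166.9, 204.9 and 261.3 in transgenic livers, against 14.1, 24.8, 21.6 and 116.0 in wild-type livers. Wild-type replicates 1 to 3 lay below the array medians of their group (74.3 to 92.1), and replicate 4, the array with muscle transcripts, stood apart from them. The log2 change was 2.03 ± 0.33 (n = 5 and 4, limma adjusted p = 2.79e-05), and 2.47 without the 6 arrays with another tissue's transcripts. With an offset of 64 or 1 in place of 16 it was 1.31 or 2.56, and the call held.

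Notch4 had signals of 118.6, 124.0, 173.2, 178.0 and 143.2 in week 48 transgenic livers, against 58.3, 115.4, 97.8 and 63.7 in wild-type livers. The groups did not overlap, as for 2 of the 9 genes and 21.4% of all genes, but the change did not pass (log2 0.74 ± 0.27, n = 5 and 4, limma adjusted p = 0.0539). Notch3 had signals of 228.7, 185.8, 210.5, 390.5 and 177.4 in week 48 transgenic livers, against 169.5, 126.0, 214.0 and 179.2 in wild-type livers. Replicate 4 of the transgenic livers, the array with muscle and pancreatic transcripts, was the high array, and the groups overlapped (log2 0.40 ± 0.25, limma adjusted p = 0.267). Notch1 averaged 529 ± 118 in transgenic livers and 418 ± 52.2 in wild-type livers (log2 0.31 ± 0.15, limma adjusted p = 0.142), and Jag1 averaged 264 ± 78.7 in transgenic livers and 209 ± 27.6 in wild-type livers (log2 0.28 ± 0.18, limma adjusted p = 0.286). For Notch2, Dll4, Hes1 and Heyl the log2 changes lay between -0.24 and 0.08. At this age the stellate and mural list was 8.91 to 9.55 in transgenic livers, against 7.71 to 8.65 in wild-type livers, with 6 of 11 genes called higher. Replicate 4, an array with muscle transcripts, was the highest of each group. The next transgenic liver was at 9.52, and the other wild-type livers were at 7.71 to 7.82. The part of muscle in this list was not tested. The endothelial list was 8.91 to 9.21 in transgenic livers, against 8.35 to 8.60 in wild-type livers, with 3 of 12 called higher. Of 4 T cell markers 3 rose and of 7 hepatocyte markers 4 fell, and of 8 macrophage and Kupffer cell markers 1 rose and 1 fell. The part of these cell types in the Hey1 change was not tested.

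Comparing the ages within each genotype, Notch3 and Notch4 were lower at week 48 than at week 20 in transgenic liver, and Hey1 was lower at week 48 in wild-type liver. In transgenic liver 2 of the 9 genes were called, both lower, compared with 15.7% of all genes called, 5.99% higher and 9.76% lower. Notch3 averaged 239 ± 87.3 at week 48 and 376 ± 56.2 at week 20 (SD, n = 5 each, log2 -0.67 ± 0.23, limma adjusted p = 0.047). Notch4 averaged 147 ± 27.4 at week 48 and 268 ± 48.2 at week 20 and was the 1 gene without overlap, compared with 14.3% of all genes (log2 -0.80 ± 0.26, limma adjusted p = 0.0318). The Notch3 call held in 1 of 10 fits that left out an array and the Notch4 call in 4 of 10, and median centring ended both (log2 -0.55 and -0.68). Of the stellate and mural markers 1 of 11 was called lower with age in transgenic liver, and of the endothelial markers 0 of 12, while 2 of 8 macrophage and Kupffer cell markers and 1 of 4 bile duct markers were called higher. The Actb 3'/5' ratio did not overlap either, at 1.30 to 1.57 in week 48 and 1.62 to 1.74 in week 20 transgenic livers. The part of these measures in the age changes was not tested. These comparisons use the same week 20 transgenic arrays as the comparison with wild-type liver, so they are not independent of it.

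In wild-type liver 1 of the 9 genes was called with age, compared with 6.88% of all genes, 2.41% higher and 4.47% lower. Hey1 averaged 44.1 ± 48.1 at week 48 (n = 4) and 111 ± 57.4 at week 20 (n = 5), with a log2 change of -1.23 ± 0.33 (limma adjusted p = 0.0192). Its signals overlapped between the ages through week 48 replicate 4, and 0 of the 9 genes were free of overlap, compared with 8.84% of all genes. The call held in 4 of 9 fits that left out an array and was lost in a fit of the compared arrays alone (adjusted p = 0.166). Without the arrays with another tissue's transcripts the change was -1.70 (adjusted p = 0.000998), and with an offset of 64 it was -0.72 (adjusted p = 0.0467). The Actb ratio was 1.39 to 1.71 in week 48 and 1.81 to 2.16 in week 20 wild-type livers, and its part in the change was not tested. Of the endothelial, stellate and mural, macrophage, T cell, bile duct and hepatocyte markers 0 were called with age in wild-type liver.

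The difference of the transgene effect between the ages was tested directly, and 0 of the 9 genes passed, compared with 0.275% of all genes (36 genes). The effect at week 48 minus that at week 20 was -1.02 ± 0.34 for Notch3 (unadjusted p = 0.00529, limma adjusted p = 0.198), -0.71 ± 0.38 for Notch4 (adjusted p = 0.422) and 1.04 ± 0.45 for Hey1 (unadjusted p = 0.0267, limma adjusted p = 0.314). Of the 9 genes, 2 had an unadjusted p under 0.05. So a call at 1 age and not at the other does not show that the effect differed between ages.

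Peretinoin was compared with the basal diet in transgenic liver at each age, and 0 of the 9 Notch genes were called at week 20 or at week 48. Over all genes 2.89% were called at week 20 (1.64% higher and 1.24% lower) and 0.725% at week 48 (0.153% higher and 0.573% lower). Groups were free of overlap for 0 of the 9 genes at either age, compared with 5.02% of all genes at week 20 and 2.69% at week 48. At week 20, Notch4 had signals of 239.4, 142.7, 121.5, 179.8 and 229.6 on peretinoin, against 264.9, 234.6, 343.3, 279.4 and 219.3 on the basal diet. Of the peretinoin arrays 3 lay below all basal diet arrays and 2 within their range. The log2 change was -0.54 ± 0.26 (n = 5 and 5, unadjusted p = 0.0441, limma adjusted p = 0.24), and Notch4 was the gene of the 9 with an unadjusted p under 0.05. Notch3 had signals of 359.8, 239.2, 189.7, 303.4 and 419.4 on peretinoin, against 406.9, 321.3, 348.8, 459.7 and 345.5 on the basal diet, which overlapped (log2 -0.34 ± 0.23, limma adjusted p = 0.441). At week 48 the log2 change on peretinoin was 0.13 ± 0.26 for Notch4 (limma adjusted p = 0.865) and -0.10 ± 0.23 for Notch3 (adjusted p = 0.891). Notch4 was lowest, at 62.1, in replicate 1 on peretinoin, an array with muscle transcripts. Without the 6 arrays with another tissue's transcripts its log2 change was 0.49, and it was not called.

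Hey1 had the lowest estimate of the 9 genes on peretinoin at week 48. Its signals were 57.4, 129.5, 124.2, 120.7 and 186.9 on peretinoin, against 162.4, 158.1, 166.9, 204.9 and 261.3 on the basal diet. Of the peretinoin arrays 4 lay below all basal diet arrays, and 1 lay within their range (log2 -0.61 ± 0.31, n = 5 and 5, limma adjusted p = 0.368). At week 20 Hey1 averaged 156 ± 46.3 on peretinoin and 217 ± 23.8 on the basal diet (log2 -0.47 ± 0.31, limma adjusted p = 0.415). Jag1 at week 48 had signals of 202.5, 207.4, 208.3, 247.1 and 147.8 on peretinoin, against 374.6, 290.1, 176.8, 200 and 277.7 on the basal diet (log2 -0.33 ± 0.17, limma adjusted p = 0.389). The 95% interval was -1.24 to 0.01 for Hey1 and -0.67 to 0.02 for Jag1 at week 48.

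Notch1, Notch2, Dll4, Hes1 and Heyl had log2 estimates between -0.19 and 0.26 on peretinoin at either age. Hes1 on peretinoin at week 20 was split, at 705.5 and 712.6 in replicates 1 and 2 and 276.4 to 395.8 in the other three. The peretinoin effect at week 48 minus that at week 20 was called for 0 of the 9 genes, compared with 0.679% of all genes (0.305% higher and 0.374% lower). The Actb 3'/5' ratio was 1.70 to 3.31 on peretinoin and 1.62 to 1.74 on the basal diet at week 20, and 1.42 to 1.94 on peretinoin and 1.30 to 1.57 on the basal diet at week 48. Of the stellate and mural markers 1 of 11 was called lower on peretinoin at week 20 and 0 of 11 at week 48, where 5 had an unadjusted p under 0.05 and 1 of 4 T cell markers was called lower. At week 48 the stellate and mural mean was 8.54 to 8.81 on peretinoin and 8.91 to 9.55 on the basal diet, without overlap. The part of these measures in these values was not tested.

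Set against wild-type liver instead, the peretinoin-fed transgenic livers had 3 of the 9 genes called higher at week 20 (17.4% of all genes called, 12.2% higher and 5.14% lower) and 3 at week 48 (16.8% called, 11.2% higher and 5.63% lower). These comparisons share their wild-type arrays with those of the basal diet livers. At week 20, Notch3 was 2.11-fold higher in the peretinoin-fed livers (log2 1.08 ± 0.23, limma adjusted p = 0.00149), Notch4 1.88-fold higher (0.91 ± 0.26, adjusted p = 0.0141) and Jag1 1.41-fold higher (0.50 ± 0.17, adjusted p = 0.0389). The call of Jag1 held under 5 of 11 alternatives and in 3 of 10 fits that left out an array, and with the mean of its kept probe sets the log2 change was 0.11 (adjusted p = 0.698). Hey1 was not called there (0.53 ± 0.31, limma adjusted p = 0.252). At week 48, Notch1 was 1.36-fold higher (0.44 ± 0.15, limma adjusted p = 0.0382), Notch4 1.82-fold higher (0.87 ± 0.27, adjusted p = 0.0275) and Hey1 2.68-fold higher (1.42 ± 0.33, adjusted p = 0.0028). The week 48 calls depended on the spread shared by all 7 groups: in a fit of the compared arrays alone 0 of the 9 genes were called. In fits that left out an array the call of Notch1 held in 3 of 9, that of Notch4 in 4 of 9 and that of Hey1 in 9 of 9. Under the alternatives the call of Notch1 held in 8 of 11, and those of Notch4 and Hey1 each in 10 of 11. The log2 change of Hey1, set against the same low wild-type signals, ran from 0.85 to 2.10 over the alternatives. Relative to wild-type livers, 6 of 11 stellate and mural markers were called higher in peretinoin-fed livers at week 20 and 3 of 11 at week 48, and 2 of 12 endothelial markers at each age, and their part was not tested.

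Tumours were compared with transgenic livers of the same age, and 0 of the 9 Notch genes were called by limma, nor was any of the 13099 genes (0%), of which 1075 had an unadjusted p under 0.05. Without the arrays with another tissue's transcripts 4 genes were called, 0 of them among the 9. Among the 9 genes 0 had an unadjusted p under 0.05, and 8 had a positive estimate, compared with 51.9% of all genes. Heyl had signals of 208.3, 201.6, 216.6, 214.2 and 226.8 in tumours, against 178.2, 135.0, 155.5, 185.9 and 179.5 in transgenic livers. The groups did not overlap, as for 1.98% of all genes, and the tumours were closely spaced (log2 0.34 ± 0.18, n = 5 and 5, limma adjusted p = 0.677). Heyl was the gene of the 9 without overlap.

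Hes1 had signals of 696.7, 361.0, 606.3, 776.6 and 419.8 in tumours, against 457.9, 383.9, 529.5, 443.2 and 300.1 in transgenic livers. Of the tumours 3 lay above all transgenic livers and 1 below 4 of them (log2 0.39 ± 0.27, limma adjusted p = 0.789). Notch4 had signals of 151.8, 224.1, 159.6, 293.7 and 159.8 in tumours, against 118.6, 124.0, 173.2, 178.0 and 143.2 in transgenic livers, which overlapped (log2 0.36 ± 0.26, limma adjusted p = 0.799). Hey1 was similar in level, at 204 ± 44.3 in tumours and 191 ± 43.6 in transgenic livers (SD, n = 5 each, log2 0.09 ± 0.31, 95% interval -0.53 to 0.72). For Notch3, whose tumour signals were 259.0, 281.7, 187.6, 453.6 and 205.3, the log2 change was 0.20 ± 0.23 (limma adjusted p = 0.924). Notch1, Notch2, Jag1 and Dll4 had log2 estimates between -0.03 and 0.22.

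Against wild-type liver of week 48, tumours had 3 of the 9 genes called higher, compared with 27.1% of all genes called, 17.9% higher and 9.21% lower. Hey1 was 4.37-fold higher in tumours (log2 2.13 ± 0.33, n = 5 and 4, limma adjusted p = 9.94e-06), Notch4 2.14-fold (1.10 ± 0.27, adjusted p = 0.00294) and Jag1 1.41-fold (0.50 ± 0.18, adjusted p = 0.0369). For Hey1, whose wild-type signals lay below the array medians on 3 of 4 arrays, the log2 change ran from 1.38 to 2.66 over the alternatives. The call of Jag1 held under 7 of 11 alternatives (highest adjusted p = 0.532) and in 4 of 9 fits that left out an array. Groups did not overlap for Notch4, Hey1 and Heyl, 3 of the 9 genes, compared with 23.6% of all genes. This comparison shares its 4 wild-type arrays with that of the transgenic livers, in which Hey1 had a log2 change of 2.03 and Notch4 one of 0.74. Of the stellate and mural markers 6 of 11 and of the endothelial markers 6 of 12 were called higher in tumours than in wild-type livers, and their part was not tested.

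Across the 7 group means, Hey1 spanned 2.23 log2 units, Notch4 1.54 and Notch3 1.42. The other 6 genes spanned between 0.30 (Dll4) and 0.67 (Jag1). Notch3, Notch4 and Hey1 were highest in week 20 transgenic livers. Hes1 and Heyl were highest in tumours, Jag1 and Notch2 in week 20 peretinoin livers, Notch1 in week 48 peretinoin livers and Dll4 in week 48 wild-type livers. Of 54 pairs of neighbours in these orders, 4 differed by more than the larger SD of the pair. They were week 20 peretinoin and week 48 wild-type livers for Notch1, week 20 transgenic livers and tumours for Notch4, week 48 transgenic and week 20 wild-type livers for Notch4, and week 20 and week 48 wild-type livers for Hey1. The remaining neighbours did not differ beyond their spread.

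Other probe sets of the same genes did not always follow. Of the 19 probe sets 15 passed the filter, and Hes1 and Hey1 had 1 each. The other probe sets of Notch4, with mean signals of 48.1 and 31.6 over all arrays, had log2 changes of 0.17 and -0.23 with the transgene at week 20, and that of Notch3, with a mean signal of 33.3, had 0.39. These 3 probe sets were below the filter. For Notch1 the other probe set gave 0.48, and for Jag1 the others gave 0.12 and 0.07. With the mean of its kept probe sets the log2 change of Jag1 was 0.29 and the call was lost (limma adjusted p = 0.188). Notch2 and Dll4 each had 1 other kept probe set, with mean signals of 64.6 and 113.5. The Notch2 estimate turned its sign over the alternatives and was not called in any. It ran from -0.24 to 0.31 on peretinoin at week 20, and from -0.28 to 0.21 in tumours against wild-type liver. The Dll4 estimate also turned its sign and was not called in any. It ran from -0.43 to 0.13 on peretinoin at week 48, and from -0.34 to 0.17 in tumours against wild-type liver. For Heyl the 2 others gave 1.09 and 0.02, the higher of which had a limma adjusted p of 0.00641 over all probe sets, while the probe set that stood for Heyl was not called.

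**Figure D3:**
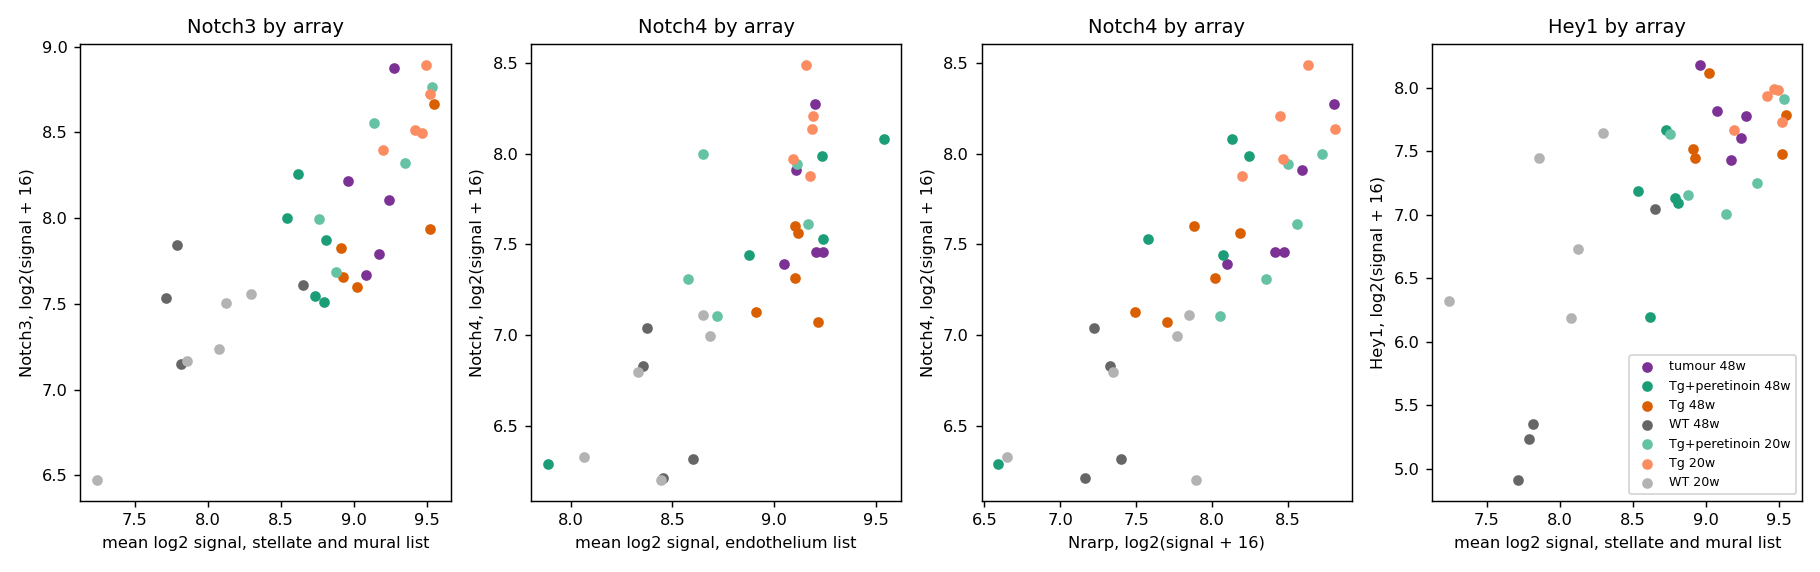
Log2(signal + 16) of Notch3, Notch4 and Hey1 in the 34 arrays (vertical axes) against the mean log2 signal of the stellate and mural cell list, the mean of the endothelium list, or Nrarp (horizontal axes); colours are the 7 groups. In the Notch3 and Notch4 panels week 20 transgenic arrays sit at the upper right and wild-type arrays at the lower left, joined in the Notch4 panels by replicate 1 of the week 48 peretinoin livers, and Pearson's r is 0.81, 0.79, 0.84 and 0.76 from left to right.

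Correlations across the 34 arrays describe how the genes varied together. The arrays share the 7 groups, so the value within groups, after each group mean was removed, is given as well. Over the 36 pairs of the 9 genes the median Pearson's r was 0.23, and 0.07 within groups. Notch3 and Notch4 had r = 0.69 (0.25 within groups) and Notch4 and Hey1 had r = 0.65 (0.29 within groups). Notch2 and Jag1 had r = 0.61 and kept 0.60 within groups, the 1 pair above 0.5 there.

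Notch3 had r = 0.81 with the mean of the stellate and mural markers (0.57 within groups) and r = 0.47 with that of the endothelial markers (-0.01 within groups). Notch4 had r = 0.79 with the endothelial markers (0.65 within groups) and r = 0.72 with the stellate and mural markers (0.19 within groups). Hey1 had r = 0.76 with the stellate and mural markers (0.49 within groups) and r = 0.68 with the endothelial markers (0.43 within groups). With the macrophage and Kupffer cell markers Notch4 had r = -0.22 (0.59 within groups) and Hey1 had r = -0.16 (0.48 within groups). With the hepatocyte markers Notch4 had r = 0.01 (0.43 within groups). So within groups Notch4 and Hey1 did not vary with the vascular lists alone. With the bile duct markers the highest r of the 9 genes was 0.21, for Notch3 (0.39 within groups). These lists also change between the groups. A check chosen after seeing the data left out the 6 arrays with another tissue's transcripts. With the stellate and mural markers the values within groups (28 arrays) were then 0.58 for Notch3, 0.23 for Notch4 and 0.13 for Hey1. With the endothelial markers they were 0.23 for Notch3, 0.37 for Notch4 and 0.07 for Hey1. So the within-group values of Hey1, and that of Notch4 with the endothelial markers, depended on the arrays left out.

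The tested genes most like each member, by Pearson's r over the 34 arrays, were Prkg1 (0.86) and Rcsd1 (0.84) for Notch3, Ppp1r18 (0.85) and Nrarp (0.84) for Notch4, and Crip1 (0.85) and Hic1 (0.84) for Hey1. Nrarp encodes a Notch-regulated repeat protein that is a known Notch target, and its r with Notch4 within groups was 0.72, or 0.54 without the 6 arrays with another tissue's transcripts. For Jag1 they were Clasp2 (0.81) and Pam (0.76), for Notch1 Itgax (0.72) and Cep120 (0.70), and for Notch2 Zfp148 (0.73) and Ncoa3 (0.67). For Hes1 they were Ccdc12 (0.67) and the immediate early gene Egr1 (0.64). Heyl had Hnrnpu and Foxp1 (each 0.61) and Dll4 had Opalin (0.67) and Mc3r (0.63), the lowest values of the 9 genes.

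Other genes of the pathway were counted in lists of ligands, receptor processing, glycosylation, endocytosis and turnover, the nuclear complex, and further targets. These lists too were chosen with earlier results of these data known. Of 53 genes listed, 42 were tested. In transgenic liver at week 20, 14 of the 42 rose and 1 fell, and the median of the 42 was 0.22 on the log2 scale. As shares, 33.3% of the 42 and 15.8% of all genes were called higher, and 2.38% of the 42 and 7.87% of all genes lower. Gucy1a1, a guanylate cyclase subunit of smooth muscle that is a reported Notch target, rose by 2.18 ± 0.23 (limma adjusted p = 1.63e-08), with 1351 ± 339 in transgenic livers and 287 ± 76.7 in wild-type livers (SD, n = 5 each). Ncstn (nicastrin), a subunit of the gamma-secretase that releases the inner part of Notch, rose by 1.02 ± 0.19, with 844 ± 189 in transgenic livers and 403 ± 54.5 in wild-type livers. Poglut1, which adds glucose to Notch, rose by 0.51 ± 0.11 and Dtx3, of the Deltex family, by 1.65 ± 0.34.

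Of the 8 genes of receptor and ligand processing 4 rose at week 20 (Ncstn, Adam17, Aph1b and Furin), and of 5 glycosylation genes 2 rose (Poglut1 and Mfng). Of 6 genes of the nuclear complex 2 rose, Rbpj by 0.45 ± 0.11 (limma adjusted p = 0.00433) and Maml1, a coactivator, by 0.58 ± 0.16. Among 9 further targets and related genes Gucy1a1, Nrarp and Id1 rose and Hes6 fell. Nrarp averaged 353 ± 58.1 in transgenic livers and 174 ± 58.0 in wild-type livers (log2 1.01 ± 0.23, limma adjusted p = 0.00186). Hes6, which opposes Hes1 in the nervous system of the mouse, averaged 1577 ± 528 in transgenic livers and 2643 ± 844 in wild-type livers (log2 -0.75 ± 0.24, adjusted p = 0.0239). The 3 ligands tested, Dll1, Jag2 and Dlk2, were not called.

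**Figure D4:**
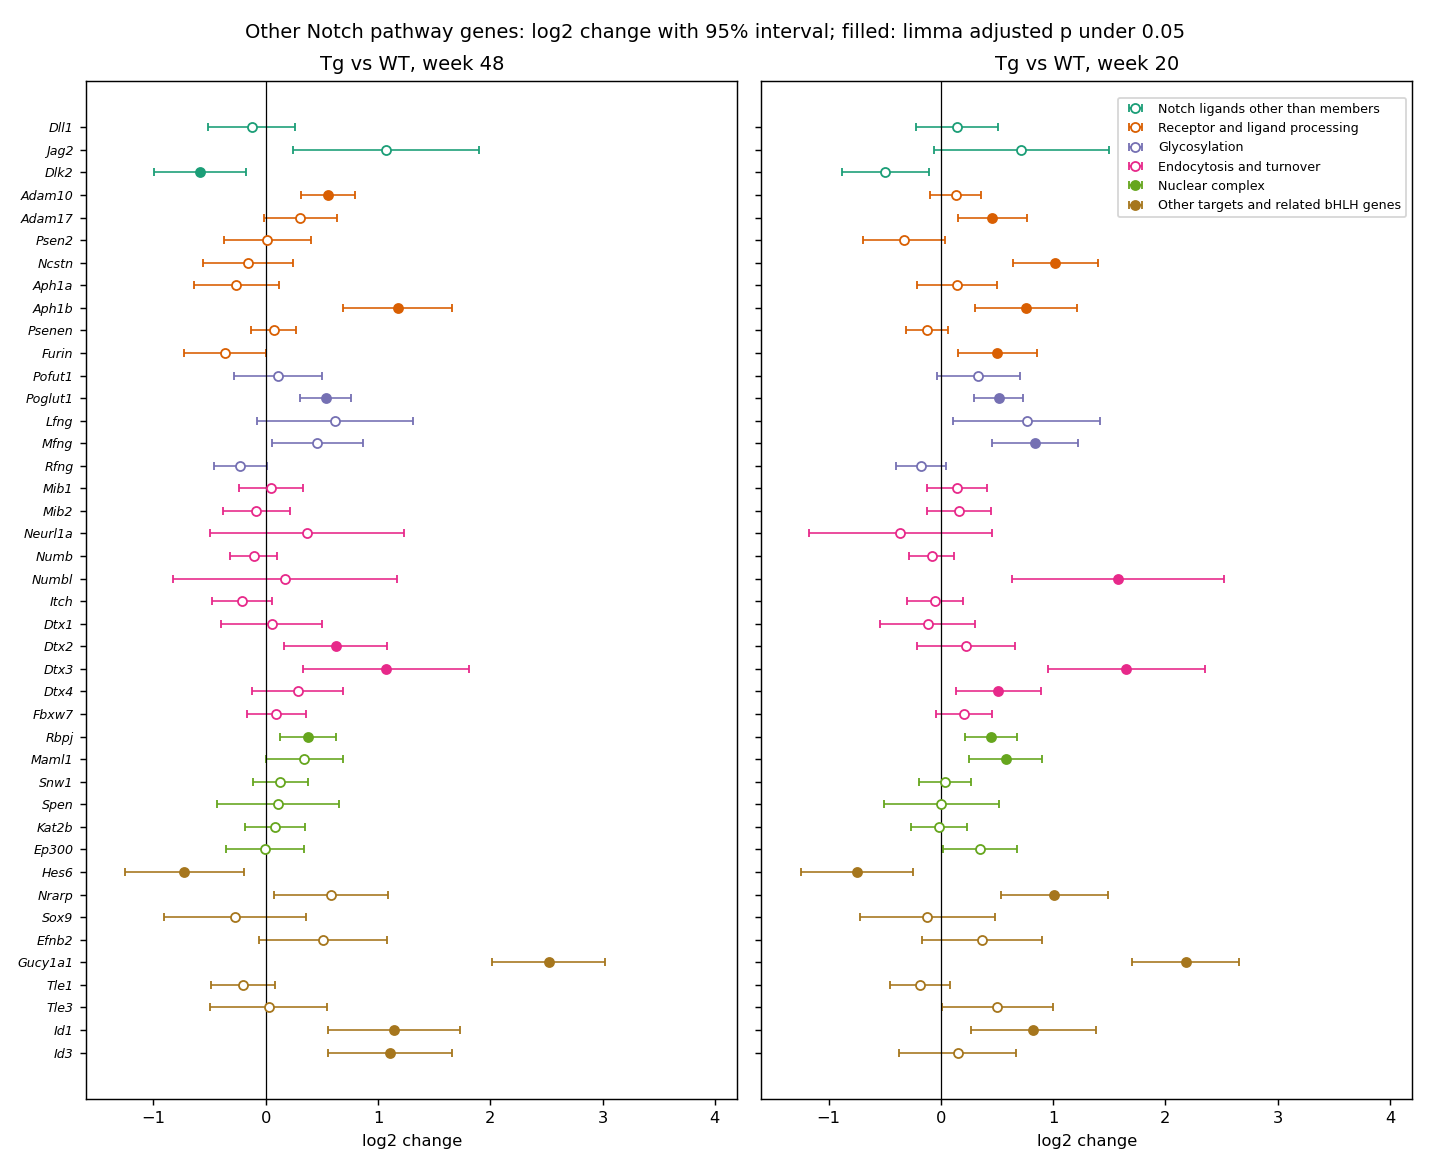
Log2 change of 42 other Notch pathway genes (rows, coloured by class) in transgenic against wild-type liver at week 48 (left) and week 20 (right), with 95% confidence intervals; filled points passed limma adjusted p under 0.05. At week 20, 15 points are filled, 14 of them above 0, and at week 48, 11 are filled, with Gucy1a1 farthest right at both ages.

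At week 48, 9 of the 42 genes rose and 2 fell in transgenic liver (21.4% higher and 4.76% lower, compared with 14.2% and 6.58% of all genes), with a median of 0.11. Gucy1a1 rose by 2.52 ± 0.25 (limma adjusted p = 1.14e-08), Aph1b, another gamma-secretase subunit, by 1.18 ± 0.24, Poglut1 by 0.53 ± 0.11 and Adam10, the protease that sheds the outer part of Notch, by 0.56 ± 0.12. Nrarp averaged 219 ± 43.1 in transgenic livers and 140 ± 11.3 in wild-type livers and was not called. The transgene effect on Ncstn was lower at week 48 than at week 20 by a log2 difference of -1.18 ± 0.27 (limma adjusted p = 0.049978). It was the 1 call of the 42 (2.38%) in the test of the difference between ages, compared with 0.275% of all genes. Between week 48 and week 20 in transgenic liver 4 of the 42 rose and 8 fell (9.52% and 19%, compared with 5.99% and 9.76% of all genes).

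Of the same 42 genes, 0 were called in tumours against transgenic liver (0% of all genes) and 0 on peretinoin at week 48 (0.725% of all genes). On peretinoin at week 20, 1 of the 42 was called, lower (2.38%), compared with 2.89% of all genes called and 1.24% called lower. That gene, Ncstn, averaged 513 ± 149 on peretinoin and 844 ± 189 on the basal diet (SD, n = 5 each, log2 -0.72 ± 0.19, limma adjusted p = 0.0303). Tumours against wild-type liver had 13 of the 42 higher and 4 lower (31% and 9.52%, compared with 17.9% and 9.21% of all genes), with Nrarp at 345 ± 63.1 in tumours and 140 ± 11.3 in wild-type livers (log2 1.20 ± 0.25, limma adjusted p = 0.00047). The peretinoin-fed livers against wild-type liver had 9 higher and 0 lower at week 20 (21.4% higher, compared with 12.2% of all genes). At week 48 they had 5 higher and 1 lower, and the 11.9% higher was near the 11.2% of all genes.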

How the data were processed

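Total RNA of 34 samples was extracted with an RNeasy kit and hybridised as biotinylated cRNA, per the labels' protocols. The authors deposited linear signal intensities. The submitters' processing notes name MAS5 without a version. The 2% trimmed mean of each array lay between 500.003 and 500.004, so arrays had been scaled to a common level. The number of arrays limits the precision. Of 45101 probe sets, 64 were controls, 34945 had exactly 1 gene symbol, 932 several and 9160 none in the platform annotation, standing for 18193 genes.

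Signals were taken as log2(signal + 16). The 60% of probe sets with the highest mean signal were kept, and the brightest kept probe set of exactly 1 symbol stood for each of 13099 genes. All 7 groups entered a limma model (version 3.58.1, R 4.3.3; eBayes with an intensity trend, 27 residual degrees of freedom), which shares 1 estimate of the spread, and 12 comparisons were drawn from it, each two-sided with Benjamini-Hochberg adjustment. The scripts were tested on simulated arrays. All 9 Notch genes, the marker lists and the pathway lists are described. The 9 genes and the lists were chosen with earlier results of these data known. For each Notch gene the 2 most correlated tested genes are named (no clones, Gm, Rik or LOC genes), and up to 4 pathway genes of smallest p in a comparison; the others named belong to a count or to a result of Notch signalling chosen after their values were seen. The alternatives were other filters, offsets of 1 and 64, quantile normalization, median centring, averaged probe sets, a fit of the compared arrays alone, a replicate block, no intensity trend, arrays with another tissue's transcripts left out (a marker mean at least 3 log2 units above the median) and each array left out in turn. All 34 arrays entered the values reported; the most similar arrays (r = 0.977) shared 0.293% of their signals. Detection calls were not used here.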

Additional observations from a re-analysis of the deposited data

Results flagged for a closer look

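In each group of each gene the highest and lowest array were set against the others (63 groups of 4 or 5 arrays), and 4 arrays lay apart by Dixon's criterion, which chance meets in about 1 of 20 groups. Notch1 was low in replicate 4 of the week 20 wild-type livers, at 333.7 against 427.9 to 447.6 in the others. Jag1 was low in replicate 4 of the week 20 peretinoin livers, at 247.2 against 337.7 to 367.2. Dll4 was high in replicate 1 of the week 20 peretinoin livers, at 253.4 against 101.7 to 120.2. Heyl was low in replicate 2 of the week 48 wild-type livers, at 128.7 against 173.5 to 181.6. None of these arrays is among those with another tissue's transcripts, and the cause was not tested.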

How the results depend on the processing

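The number of the 9 genes called was recomputed under 11 alternatives and with each array left out. With transgenic against wild-type liver at week 20 it was 5, and 3 without a filter, 2 after quantile normalization, 3 after median centring, 3 without the arrays with another tissue's transcripts and 2 to 5 without 1 array. At week 48 it was 1, and 2 with an offset of 1, after quantile normalization, after median centring or with only the compared arrays, and 1 to 2 without 1 array; the gene added is Notch4. For age in transgenic liver it was 2, and 1 without a filter, with an offset of 1, after quantile normalization or without the intensity trend, 0 after median centring and 0 to 2 without 1 array. For age in wild-type liver it was 1, and 0 with only the compared arrays and 0 to 1 without 1 array. Tumours against wild-type liver had 3, and 5 after median centring, 4 with the replicate block, 2 without a filter, after quantile normalization or without the arrays with another tissue's transcripts, and 2 to 4 without 1 array. Peretinoin-fed against wild-type liver at week 20 had 3, and 2 to 3 under the alternatives and 2 to 4 without 1 array. Peretinoin-fed against wild-type liver at week 48 had 3, and 0 with only the compared arrays and 1 to 3 without 1 array. Notch3 at week 20 (log2 1.17 to 1.53), Notch4 at week 20 (1.12 to 1.61) and Hey1 at week 48 (1.31 to 2.56) were called under all 11 alternatives and without each array. Every alternative read these genes from the same probe set, so the other probe sets of Notch3 and Notch4 did not enter. No reported change of a called gene turned its sign. The tumour, peretinoin and age-difference tests gave 0 of the 9 genes under all 11 alternatives. The upper 40% of probe sets left out Dll4. At week 20, 2071 of 3102 calls over all genes were higher, 1522 of 2785 after quantile normalization and 1419 of 3038 after median centring, and at week 48 1858 of 2720 and, after median centring, 2234 of 2644. Deviations of same-numbered arrays correlated at r -0.206 to 0.432 over 99 pairs, 24 of them above 0.1. Tumours and transgenic livers came nearest to pairing (r 0.0771 to 0.290, 4 of 5 pairs above 0.1, 4 of 5 arrays best with their own number). In 0 comparisons were all pairs above 0.1, and samples were treated as unpaired throughout. That rule cannot exclude that some tumours and livers share a mouse, which the labels do not state. A paired fit of tumours and transgenic livers was not run. With the replicate block the counts were 5 at week 20, 1 at week 48 and 0 for tumours against transgenic liver, as without it. That block gives each replicate number an effect shared by all groups, so it cannot decide whether tumours and livers alone are paired. The causes of these differences were not tested.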
